A study of Mus musculus with 12 samples.

Results

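The tumour necrosis factor (TNF) superfamily ligands and their receptors were examined in the tibialis anterior, a hindlimb muscle of the mouse. Members were all entries of the deposited count table whose symbol begins with Tnfsf or Tnfrsf, together with Tnf, Lta, Ltb, Ltbr, Cd40, Cd27, Cd70, Fas, Fasl, Ngfr and Eda2r. This gave 43 of 24421 entries, of which 16 are ligands, 26 are receptors and 1, Tnfsfm13, is a readthrough of the neighbouring ligand genes Tnfsf12 and Tnfsf13. Whole-muscle RNA was sequenced in 6 C57Bl/6 mice (WT) and 6 mdx/mTR mice, all male and 4 months old. Mice with the mdx allele lack dystrophin, the product of Dmd, and mTR is a name of the telomerase RNA gene, listed as Terc. The strains differ at both loci, so the share of each in any difference cannot be told apart. The labels number the mice but do not say how they relate to each other, so p-values measure the spread between these samples.

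Ligands of this family are mostly membrane proteins that act as trimers on nearby cells, and several are shed into the extracellular fluid. Receptors with a death domain can engage caspases, and receptors without one bind TRAF adaptors and turn on NF-kB and stress kinase signalling, while decoy receptors bind ligand without passing on a full signal. In skeletal muscle the family is known for TNF in inflammation and wasting, for TWEAK (Tnfsf12) and its receptor Tnfrsf12a in regeneration and atrophy, and for RANK (Tnfrsf11a) and osteoprotegerin (Tnfrsf11b) in dystrophic muscle.

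The WT libraries held 36903560 to 40981012 counts and the mdx/mTR libraries 35136327 to 60330410. Levels are in CPM, which relates the counts of a gene to the TMM-scaled total of its library. In these libraries 0 counts of a gene allow a level of up to 3 counts, or 0.046 to 0.0837 CPM, by counting error only. Dmd lay between 228 and 244 CPM in WT and between 35.2 and 56.4 CPM in mdx/mTR, while Terc had 2 counts in all and checks nothing. Summed levels of 6 muscle fibre genes were 142200 to 166200 CPM in the WT mice and 108800 to 148900 CPM in the mdx/mTR mice, with 1 gene higher (Mylpf) and 2 lower (Myh4 and Ttn). Of 8 macrophage markers 7 were higher in mdx/mTR, and their summed level ran from 82.05 to 144 CPM in WT and from 231 to 632 CPM in mdx/mTR. The summed level of 7 myogenic markers ran from 27.98 to 38.9 CPM in WT and from 82.6 to 328 CPM in mdx/mTR. Both sums were highest in mdx/mTR replicate 5. In whole muscle, a change in the number of cells of a type and a change in RNA per cell cannot be told apart.

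The largest log2 fold change among the tested members belonged to a decoy receptor gene on chromosome 7, and sequence of this locus is shown first because it bears on how well its genes can be counted. Tnfrsf22 (chr7:143634806-143649661, minus strand, GRCm38) and Tnfrsf23 (chr7:143665809-143685872, minus strand, GRCm38) are neighbouring genes for decoy receptors of TRAIL, the ligand encoded by Tnfsf10. Of the 50-base stretches of the longest protein-coding transcript, 27.7% for Tnfrsf22 and 29.9% for Tnfrsf23 also occur in another gene of GENCODE M21, and each is a partner of the other. Their coding sequences share an identical run of 102 bases, at positions 421 to 522 of 594 in Tnfrsf22 and 391 to 492 of 528 in Tnfrsf23, counted from the first base of the start codon and written 5′ to 3′ with no part singled out:
Shared by Tnfrsf22 and Tnfrsf23: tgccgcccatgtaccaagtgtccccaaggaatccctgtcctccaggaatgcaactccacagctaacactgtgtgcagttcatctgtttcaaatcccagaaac
A read inside this run has no base that separates the genes, so the split of counts between them is uncertain.

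The 250 bases before the start site are shown for the 3 members that rose at least 2-fold without overlap between the groups and have a RefSeq entry (GRCm38.p6). Whether these members share regulation was not tested. Capitals mark E-boxes, the letters CANNTG, which read the same on either strand and which myogenic and other helix-loop-helix factors are known to bind:
Tnfrsf23 (chr7:143685876-143686125, minus strand): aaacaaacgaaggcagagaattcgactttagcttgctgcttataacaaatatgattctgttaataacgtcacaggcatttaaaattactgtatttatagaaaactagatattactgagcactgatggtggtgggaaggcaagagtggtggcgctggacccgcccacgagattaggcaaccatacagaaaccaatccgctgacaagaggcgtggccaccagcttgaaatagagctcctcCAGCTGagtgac
Tnfrsf11a (chr1:105780473-105780722, plus strand): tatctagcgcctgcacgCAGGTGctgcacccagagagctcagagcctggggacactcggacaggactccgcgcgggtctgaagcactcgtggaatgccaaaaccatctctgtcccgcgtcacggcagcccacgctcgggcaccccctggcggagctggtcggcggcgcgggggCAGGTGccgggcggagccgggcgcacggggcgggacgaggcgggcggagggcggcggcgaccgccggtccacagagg
Tnfrsf1b (chr4:145246871-145247120, minus strand): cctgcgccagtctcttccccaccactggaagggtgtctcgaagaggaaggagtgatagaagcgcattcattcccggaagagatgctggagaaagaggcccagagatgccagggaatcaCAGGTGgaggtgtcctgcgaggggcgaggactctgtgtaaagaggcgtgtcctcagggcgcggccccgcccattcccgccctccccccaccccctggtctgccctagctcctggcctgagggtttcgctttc
Tnfrsf11a holds 2 such matches and the others 1 each. An E-box occurs in 66.2% of all 32851 promoter windows of this length and in 28 of the 38 windows of the 34 members with an entry. The AP-1 letters TGANTCA occur in 6.75% of all windows and in 6 member windows, and the NF-kB consensus (kappaB) in 7.25% and in 4. None of the 3 promoters shown holds an AP-1 or NF-kB match. Each match is a run of letters in this window and no evidence of binding.

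Tnfrsf23 ranged from 3.88 CPM through a median of 4.34 to 5.22 CPM in WT, and from 10.7 through 12.6 to 20.2 CPM in mdx/mTR. The groups did not overlap. The mean went from 4.45 ± 0.511 to 13.4 ± 3.43 CPM (SD, n = 6 each), a log2 fold change of 1.59 ± 0.14 (SE, edgeR adjusted p 2.59e-06). Tnfrsf22 ranged from 1.005 through 1.46 to 1.70 CPM in WT and from 2.55 through 2.74 to 4.88 CPM in mdx/mTR. Its groups did not overlap either, and 5 of the 6 mdx/mTR mice lay between 2.55 and 2.83 CPM. The log2 fold change was 1.14 ± 0.19 (SE, edgeR adjusted p 0.000264). Without mdx/mTR replicate 5, the highest mouse for both, it was 1.44 for Tnfrsf23 and 0.96 for Tnfrsf22.

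The third receptor gene at this locus, Tnfrsf26 (chr7:143607659-143628722, minus strand, GRCm38), ranged from 0.335 to 0.638 CPM in WT and from 0.376 to 0.979 CPM in mdx/mTR. The groups overlapped, and its log2 fold change of 0.48 ± 0.24 did not pass the threshold (SE, edgeR adjusted p 0.112). It passed without mdx/mTR replicate 6 (0.62, adjusted p 0.0301) and with library totals alone (0.65, adjusted p 0.0463). Within 500 kb of the Tnfrsf23 start site 12 genes were tested, of which 4 were higher and 2 lower. The 9 genes there that are no members ranged in log2 fold change from -0.27 for Mrgpre to 0.37 for Cdkn1c (adjusted p 0.0548), which passed the threshold in 6 of 20 alternatives, among them leaving out mdx/mTR replicate 3, 4 or 6. Nearest among them, Cars fell by 0.24 and Osbpl5 rose by 0.34 on the log2 scale (edgeR adjusted p 0.000827 and 0.000171). With library totals alone the fall of Cars was 0.08 and no longer past the threshold (adjusted p 0.168).

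**Figure D1:**
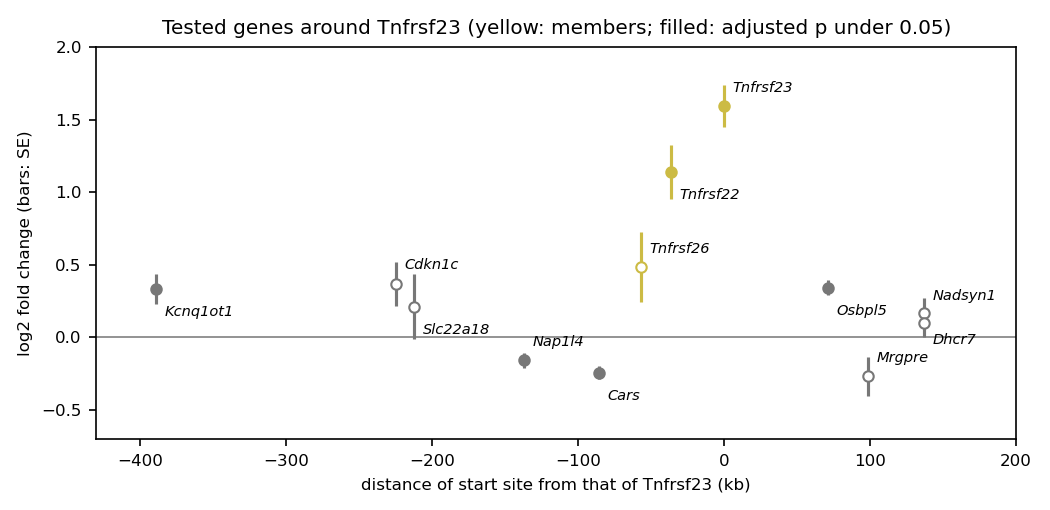
Log2 fold change, mdx/mTR against WT (vertical axis, bars SE) of the 12 tested genes against the distance of their start site from that of Tnfrsf23 in kb (horizontal axis). Tnfrsf23 at 1.59 and Tnfrsf22 at 1.14 stand above the 9 genes that are no members, none of which exceeds 0.37.

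TRAIL itself was lower. Tnfsf10 (chr3:27317028-27342427, plus strand, GRCm38) ranged from 9.21 through 12.4 to 25.1 CPM in WT and from 6.36 through 9.76 to 10.4 CPM in mdx/mTR. The groups overlapped, since WT replicate 3 at 9.21 CPM lay below 4 of the mdx/mTR mice. The log2 fold change was -0.64 ± 0.20 (SE, edgeR adjusted p 0.0176), and -0.49 with library totals alone (adjusted p 0.0802). Without WT replicate 6, at 25.1 CPM the highest, it was -0.415 (adjusted p 0.0274). Tnfrsf10b, the signalling receptor of TRAIL, ranged from 1.14 to 2.59 CPM in WT and from 1.45 to 2.51 CPM in mdx/mTR (log2 fold change 0.25, edgeR adjusted p 0.34), and 9.07% of its stretches occur in other genes. Within each library, where no scaling enters, the summed counts of Tnfrsf22 and Tnfrsf23 were 2 to 5.15 times those of Tnfrsf10b in WT and 6.12 to 10.8 times in mdx/mTR. These ranges did not overlap, and the ratio, chosen after the values were seen, was not tested.

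Of the 43 members 28 passed the filter on low counts. In edgeR 14 of these 28 had an adjusted p under 0.05, against 48.3% of all 13937 genes tested, which is no result about the members. By direction 11 were higher, with a background of 25.0%, and 3 were lower, with a background of 23.4%. Groups did not overlap for 6 members, where the background was 25.2%. A change of at least 2-fold past the threshold was found for 5 members, all higher, with a background of 9.18% for both directions together. The median log2 fold change was 0.53 over the tested members and 0.01 over all genes tested. Scaling by library totals alone moved the latter to 0.17 and gave 15 members higher and 1 lower. Levels of all 43 members summed to between 228.5 and 251 CPM in WT and between 241.0 and 339 CPM in mdx/mTR. The authors' deposited table had 11 members higher and 3 lower at an adjusted p under 0.05, and 0 of these differed from the calls given here.

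**Figure D2:**
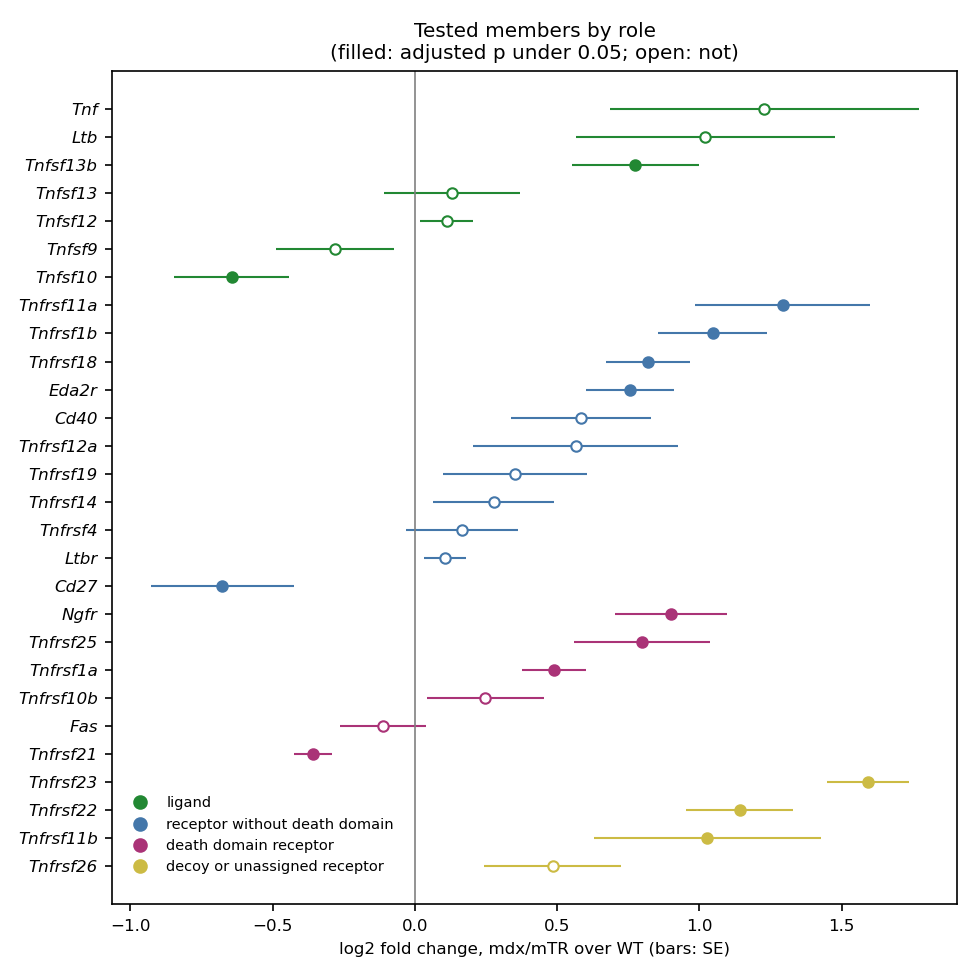
Log2 fold change, mdx/mTR against WT (horizontal axis, bars SE) of each of the 28 tested members, arranged by role. Filled points have an adjusted p under 0.05: 11 lie above 0 and 3 (Tnfsf10, Cd27 and Tnfrsf21) below.

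Of the 16 ligands 7 were tested, with Tnfsf13b higher, Tnfsf10 lower and 5 not past the threshold. The shares over all genes tested were 25.0% higher and 23.4% lower. Tnf (chr17:35199381-35202007, minus strand, GRCm38), the founding ligand and an inducer of NF-kB, ranged from 0.0278 through 0.201 to 0.366 CPM in WT and from 0.0871 through 0.435 to 0.875 CPM in mdx/mTR. The groups overlapped: 3 mdx/mTR mice lay above every WT mouse, and mdx/mTR replicate 1 lay among the lowest WT mice. The log2 fold change was 1.23 ± 0.54 (SE, edgeR adjusted p 0.0763). It passed the threshold without mdx/mTR replicate 1 (1.45, adjusted p 0.0202), and the adjusted p ran from 0.00981 to 0.184 over all 19 alternatives. Ltb, a subunit of membrane lymphotoxin, stood at 1.09 CPM in mdx/mTR replicate 5 and at no more than 0.349 CPM in the other mdx/mTR mice. Its log2 fold change was 1.02 ± 0.45 (SE, edgeR adjusted p 0.0781), and 0.49 without that mouse (adjusted p 0.233). It passed the threshold without mdx/mTR replicate 2 (adjusted p 0.0418) and with library totals alone (adjusted p 0.0483).

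Tnfsf13b encodes BAFF, a survival factor of B cells. Its level rose from 0.571 ± 0.180 to 0.985 ± 0.237 CPM (SD, n = 6 each), a log2 fold change of 0.77 ± 0.22 (SE, edgeR adjusted p 0.0112). The groups overlapped, with 3 mdx/mTR mice above all WT mice. The BAFF receptor genes Tnfrsf13b, Tnfrsf13c and Tnfrsf17 did not pass the filter and had at most 19 counts in any library. Summed B cell markers ran from 0.361 to 2.04 CPM in WT and from 0.627 to 1.58 CPM in mdx/mTR. Their part in the result was not tested.

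Tnfsf12, which encodes TWEAK, was the most abundant tested ligand per length in both groups, at 4.07 CPM per kb of exon in WT and 4.41 in mdx/mTR. It ranged from 5.15 through 6.34 to 6.78 CPM in WT and from 5.84 through 6.70 to 7.96 CPM in mdx/mTR. The groups overlapped, and the log2 fold change was 0.11 ± 0.09 (SE, edgeR adjusted p 0.335). Of its 50-base stretches 49% also belong to the readthrough Tnfsfm13, which had 0 counts in every library. Tnfsf13, the gene of the B cell factor APRIL, and Tnfsf9, a T cell costimulatory ligand, had log2 fold changes of 0.13 and -0.28 and did not pass the threshold. Reads of Tnfsf13 can likewise fall in the readthrough, and 11.5% of the Tnfsf9 stretches lie opposite another gene, so these values are uncertain.

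Each of the 9 untested ligands had few counts. Tnfsf14 encodes LIGHT, a ligand of Ltbr and Tnfrsf14, and had 0 to 4 counts in the WT libraries and 3 to 37 in the mdx/mTR libraries. Without the filter on low counts its log2 fold change was 2.72 ± 0.68 (SE, edgeR adjusted p 0.0053). Fasl, the ligand of Fas, had at most 4 counts in a WT library and 11 in an mdx/mTR library. Tnfsf11, the gene of RANKL, had at most 6 and 7. Over all 12 libraries Cd70 had 1 count, Tnfsf4 had 3, and Lta, Tnfsf8, Tnfsf15 and Tnfsf18 had from 28 to 47.

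Among the 16 receptors with no death domain, 11 were tested, and 4 were higher, 1 was lower and 6 did not pass the threshold. With 48.3% of all genes tested called in either direction, this count is no result about these receptors. Tnfrsf11a (chr1:105780718-105847981, plus strand, GRCm38), the gene of RANK, ranged from 0.583 through 1.16 to 1.45 CPM in WT and from 1.64 through 2.20 to 5.43 CPM in mdx/mTR. The groups did not overlap, and the second highest mdx/mTR mouse stood at 2.70 CPM. The log2 fold change was 1.29 ± 0.31 (SE, edgeR adjusted p 0.00346), and 0.96 without mdx/mTR replicate 5 (adjusted p 0.00315). Osteoprotegerin, a soluble decoy of RANKL that is counted here with the decoy receptors, is encoded by Tnfrsf11b (chr15:54250619-54278484, minus strand, GRCm38). It ranged from 0.194 through 0.230 to 0.419 CPM in WT and from 0.286 through 0.385 to 1.32 CPM in mdx/mTR. The groups overlapped, and its log2 fold change of 1.03 ± 0.40 had an edgeR adjusted p of 0.0459. That call was lost in 9 of 19 alternatives: without mdx/mTR replicate 5, where the log2 fold change was 0.56 (adjusted p 0.105), without mdx/mTR replicate 2, without WT replicate 1, 3, 4, 5 or 6, with no filter on low counts and in limma-voom (adjusted p 0.0893).

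Tnfrsf1b (chr4:145213463-145246870, minus strand, GRCm38) encodes the TNF receptor found mainly on immune and endothelial cells. It ranged from 8.02 through 8.94 to 10.3 CPM in WT and from 12.5 through 17.4 to 30.8 CPM in mdx/mTR, without overlap. Its log2 fold change was 1.05 ± 0.19 (SE, edgeR adjusted p 0.000593). The mdx/mTR mice fell in one order for Tnfrsf1b and for the summed macrophage markers. Replicate 5 was highest at 30.8 CPM for Tnfrsf1b and 632 CPM for the markers, replicates 2, 3 and 4 followed, and replicate 6 (12.96 and 237 CPM) and replicate 1 (12.5 and 231 CPM) were lowest. This order was noticed after the values were seen. In WT the orders differed, with replicate 2 highest for Tnfrsf1b (10.3 CPM) and replicate 6 highest for the markers (144 CPM). Summed myogenic markers were also highest in mdx/mTR replicate 5 (328 CPM) and lowest in replicates 6 and 1 (86.5 and 82.6 CPM). The part of macrophages or myogenic cells in the Tnfrsf1b result was not tested.

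Eda2r (chrX:97333840-97377216, minus strand, GRCm38), a receptor of ectodysplasin that is known as a target gene of p53, ranged from 18.08 through 23.9 to 33.4 CPM in WT and from 34.2 through 39.4 to 60.1 CPM in mdx/mTR. The groups lay next to each other without overlap, and the log2 fold change was 0.76 ± 0.16 (SE, edgeR adjusted p 0.00136). Tnfrsf18, the gene of the T cell receptor GITR, rose from 1.24 ± 0.171 to 2.18 ± 0.416 CPM (SD, n = 6 each), with no overlap and a log2 fold change of 0.82 ± 0.15 (SE, edgeR adjusted p 0.000534). Of its stretches 18.2% lie opposite the gene Gm16008, so with strand handling not given this level is uncertain. Cd27, a costimulatory receptor of lymphocytes, went from 1.54 ± 0.457 to 0.967 ± 0.316 CPM (SD, n = 6 each), a log2 fold change of -0.68 ± 0.25 (SE, edgeR adjusted p 0.038). Its groups overlapped, and the call was lost without mdx/mTR replicate 1, 2 or 3 or WT replicate 1, 3 or 5 (adjusted p up to 0.0937) and under scaling by library totals (adjusted p 0.103). Summed T cell markers meanwhile ran from 0.639 to 1.25 CPM in WT and from 2.27 to 5.05 CPM in mdx/mTR, and 1 of the 2 tested, Cd4, was higher. The mean of Cd4 went from 0.231 to 1.68 CPM, a large part of that sum. Cd2 did not pass (edgeR adjusted p 0.32), and the other markers, Cd3d, Cd3e, Cd3g and Cd8a among them, did not pass the filter. The part of T cells in the Tnfrsf18 and Cd27 results was not tested.

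Tnfrsf12a (chr17:23675445-23677468, minus strand, GRCm38), the receptor of TWEAK, ranged from 9.80 through 15.5 to 35.4 CPM in WT and from 16.5 through 22.2 to 64.4 CPM in mdx/mTR. The groups overlapped, and mdx/mTR replicate 2 alone exceeded the highest WT mouse. A log2 fold change of 0.57 ± 0.36 (SE, edgeR adjusted p 0.211) became 0.12 without that mouse (adjusted p 0.734). Ltbr, the lymphotoxin beta receptor, went from 31.7 ± 0.951 to 34.1 ± 4.27 CPM (SD, n = 6 each), a log2 fold change of 0.11 (edgeR adjusted p 0.245), and passed the threshold only with library totals alone (0.27, adjusted p 0.0235). Tnfrsf19, also called TROY, gave a log2 fold change of 0.35 (edgeR adjusted p 0.267), and its mdx/mTR mice spread from 20.1 to 62.5 CPM. Without the highest, replicate 4, it was 0.08 (adjusted p 0.757). Tnfrsf14, the gene of the LIGHT receptor HVEM, and Tnfrsf4, a costimulatory receptor of T cells, had log2 fold changes of 0.28 and 0.17 and did not pass. Cd40, a receptor of antigen-presenting cells, gave 0.58 ± 0.25 (SE, edgeR adjusted p 0.0635), with 5 mdx/mTR mice above all WT mice. It passed with library totals alone or upper quartile scaling, and when mdx/mTR replicate 4 was left out (adjusted p 0.0191). Without mdx/mTR replicate 5, at 1.98 CPM the highest, its log2 fold change was 0.35 (adjusted p 0.161). The untested Tnfrsf9, another costimulatory receptor, had 0 to 2 counts in WT libraries and 1 to 14 in mdx/mTR libraries. With no filter on low counts it gave a log2 fold change of 2.37 ± 0.82 (SE, edgeR adjusted p 0.0348), and Tnfrsf13b gave 1.41 ± 0.52 (adjusted p 0.0441). Tnfrsf8 had 78 counts over all libraries.

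All 6 death-domain receptors were tested, and 3 were higher, 1 was lower and 2 did not pass the threshold. Over all genes tested the shares were 25.0% higher and 23.4% lower. Tnfrsf1a (chr6:125349362-125362484, plus strand, GRCm38), the broadly expressed TNF receptor, ranged from 24.2 through 25.5 to 31.3 CPM in WT and from 27.9 through 36.97 to 46.8 CPM in mdx/mTR. Only mdx/mTR replicate 1 lay within the WT range, and the log2 fold change was 0.49 ± 0.11 (SE, edgeR adjusted p 0.00285). Per kb of exon, the WT mean of Tnfrsf1a was 10.2 CPM and that of Tnfrsf1b was 2.38 CPM, and in mdx/mTR they were 14.4 and 4.92. Within a library the counts of Tnfrsf1b were 0.302 through a median of 0.331 to 0.396 of those of Tnfrsf1a in WT. In mdx/mTR they were 0.299 through 0.5 to 0.658. These ranges overlapped, and mdx/mTR replicate 6 had the lowest ratio. The ratio was not tested.

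Ngfr (chr11:95568818-95587735, minus strand, GRCm38), the low-affinity neurotrophin receptor, rose from 2.18 ± 0.737 to 4.06 ± 0.582 CPM (SD, n = 6 each), a log2 fold change of 0.90 ± 0.20 (SE, edgeR adjusted p 0.00202). In 5 mdx/mTR mice it lay above every WT mouse. Schwann cells are a known source of this receptor, and all 4 Schwann markers were lower, with sums of 41.1 to 52.7 CPM in WT and 21.8 to 33.5 CPM in mdx/mTR. Their part in the Ngfr result was not tested. Tnfrsf25, the receptor of Tnfsf15 on T cells, rose from 0.822 ± 0.258 to 1.43 ± 0.405 CPM (SD, n = 6 each), with overlap and a log2 fold change of 0.80 ± 0.24 (SE, edgeR adjusted p 0.0137). Tnfrsf21 (chr17:43016555-43089189, plus strand, GRCm38), a receptor studied in neurons and T cells, went from 50.1 ± 3.09 to 39.1 ± 4.07 CPM (SD, n = 6 each), a log2 fold change of -0.36 ± 0.07 (SE, edgeR adjusted p 0.000684). In 5 mdx/mTR mice it lay below every WT mouse, while replicate 6 at 47 CPM lay within the WT range.

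Fas (chr19:34290666-34327772, plus strand, GRCm38), a receptor that triggers apoptosis, ranged from 4.61 through 6.86 to 8.38 CPM in WT and from 4.96 through 5.89 to 7.02 CPM in mdx/mTR. The mdx/mTR mice lay inside the WT range, with a log2 fold change of -0.11 ± 0.15 (SE, edgeR adjusted p 0.567), which turned to 0.04 with library totals alone.

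**Figure D3:**
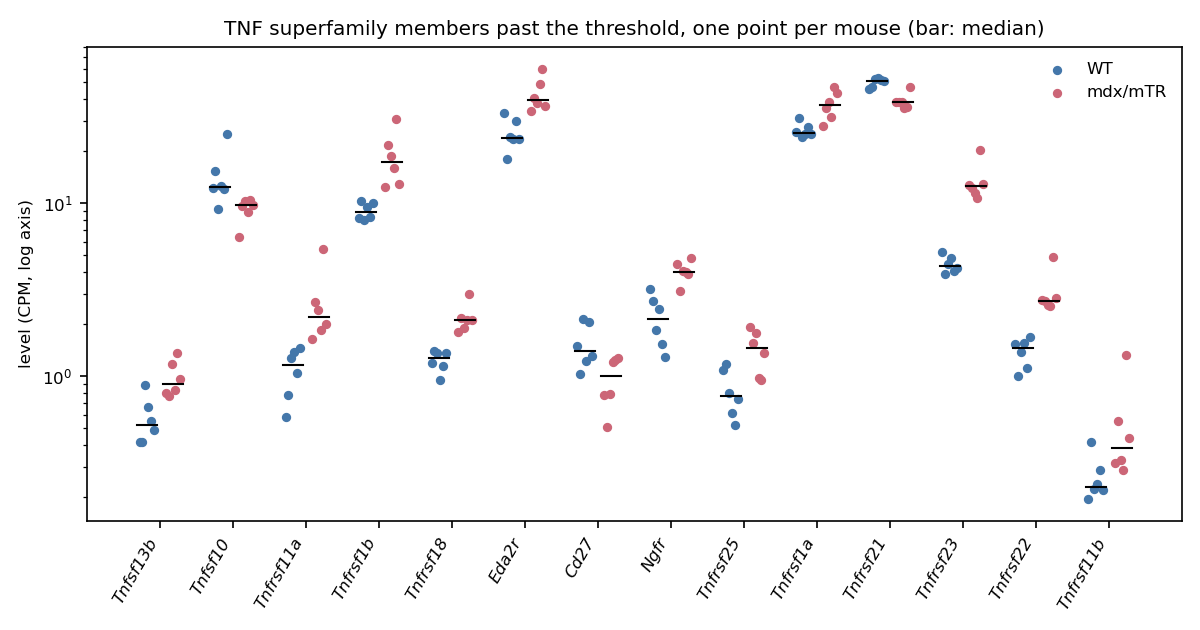
Level in CPM (vertical log axis) of the 14 members past the threshold, with 1 point for each of the 6 WT and 6 mdx/mTR mice and a bar at the median. The groups are apart for Tnfrsf11a, Tnfrsf1b, Tnfrsf18, Eda2r, Tnfrsf23 and Tnfrsf22, and the single high mdx/mTR point of Tnfrsf11b is the 1.32 CPM of replicate 5.

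Ligands and receptors known to bind each other were set side by side in 27 pairs. In 3 pairs the ligand was lower and the receptor higher, namely Tnfsf10 with Tnfrsf22, Tnfrsf23 and Tnfrsf11b. All 3 rest on the 1 call of Tnfsf10, which was lost with library totals alone (edgeR adjusted p 0.0802). The split of counts between Tnfrsf22 and Tnfrsf23 is uncertain, and the Tnfrsf11b call was lost in 9 of 19 alternatives. Over all genes tested 25.0% were higher and 23.4% lower. Tnfsf13b, the 1 ligand that was higher, has only untested receptors among the 27 pairs, so no pair could have both higher. Eda, the ligand of Eda2r, is no member and stands outside the pairs. In 2 pairs Tnf did not pass the threshold while its receptors Tnfrsf1a and Tnfrsf1b were higher. In 6 pairs a higher receptor had an untested ligand, as for Tnfrsf11a with Tnfsf11 and Tnfrsf18 with Tnfsf18.

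The highest and lowest mdx/mTR values of the members fell unevenly over the mice. Replicate 5 was the highest mdx/mTR mouse for 17 of the 28 tested members, including 9 of the 11 that were higher. Replicate 1 was the lowest for 10 of the 28, and replicate 5 for 1, Tnfrsf25. The same count was not made over all genes tested, so this pattern is not shown to be particular to the members. Replicate 5 also had the highest summed neutrophil markers, at 18.03 CPM against at most 3.49 CPM in the other mdx/mTR mice. Csf3r made up 12.7 CPM of it. Of the 3 tested neutrophil markers 2 were higher, S100a9 did not pass (edgeR adjusted p 0.159), and the untested Mpo had 8 counts. Sums for macrophage, myogenic, T, B, natural killer, dendritic, plasma, Schwann and fibro-adipogenic cells were likewise highest in replicate 5. Those for mast, endothelial, fat, tendon and muscle fibre cells were not. The part of these markers in the members' levels was not tested. Without replicate 5, 10 members were higher.

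**Figure D4:**
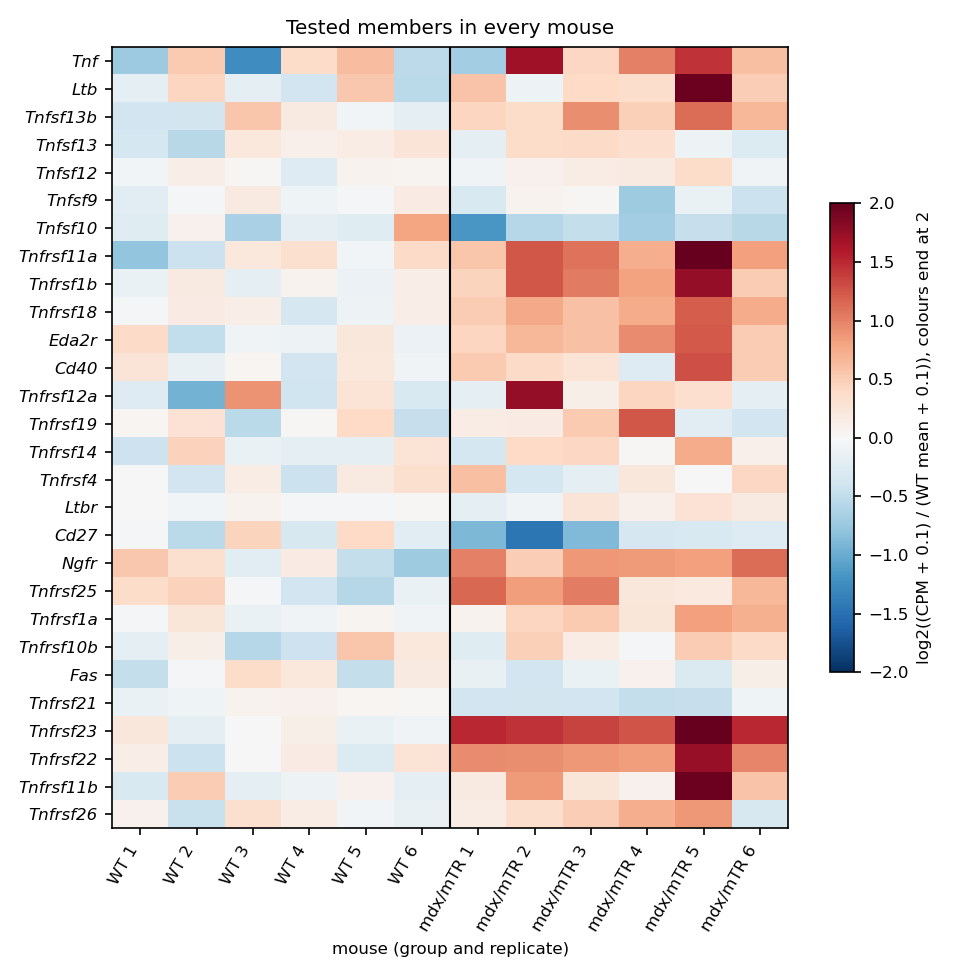
Level of each of the 28 tested members (rows) in each mouse (columns), as log2 of (CPM + 0.1) over (WT mean + 0.1), with colours ending at 2. The mdx/mTR replicate 5 column holds the highest mdx/mTR value for 17 of the 28 members.

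The other genes of the pathway were described from 4 lists of 75 genes, of which 69 were tested, with 32 higher, 9 lower and a median log2 fold change of 0.26. Over all genes tested 25.0% were higher and 23.4% lower, with a median of 0.01. Library totals alone gave 46 higher and 5 lower. Among 31 receptor-proximal genes 11 were higher and 4 lower (median 0.18). Since 48.3% of all genes tested were called in either direction, the number called is no result about this list. Among the rises were those of Bid, which links death receptors to mitochondria (log2 fold change 1.22 ± 0.35, SE, edgeR adjusted p 0.0109), and of the adaptor Traf1 (1.14 ± 0.21, adjusted p 0.000574). Tab2 and Map3k7, which act together in the kinase complex below TRAF adaptors, went from 228 ± 12.9 to 151 ± 19.95 CPM and from 116 ± 4.38 to 95.4 ± 8.15 CPM (SD, n = 6 each). Their log2 fold changes were -0.59 and -0.28 (edgeR adjusted p 6.64e-05 and 0.00113), without overlap. Traf6 had a log2 fold change of -0.19 (adjusted p 0.0107), lost with library totals alone (adjusted p 0.691), and Birc3, an inhibitor of apoptosis, one of 0.38 (adjusted p 0.0102).

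Of 14 NF-kB subunits, inhibitors and kinases 5 were higher and 2 lower (median 0.20). With 48.3% of all genes tested called in either direction, 7 of 14 is no result about this list. Nfkb2, the precursor subunit of the noncanonical pathway, which Ltbr, Cd40 and Tnfrsf12a are known to engage, rose from 13.5 ± 0.9997 to 24.3 ± 4.25 CPM (SD, n = 6 each). Its groups did not overlap, and the log2 fold change was 0.85 ± 0.10 (SE, edgeR adjusted p 2.2e-05). Bcl3 (1.51) and the inhibitor Nfkbie (1.19) rose as well, and Relb (0.27, adjusted p 0.107) and Nfkbia (0.19, adjusted p 0.273) did not pass, although Relb did without mdx/mTR replicate 1 (adjusted p 0.0358) and both did with library totals alone. The kinase gene Chuk (-0.29) and the inhibitor Nfkbib (-0.27) were lower, but under scaling by library totals neither passed (edgeR adjusted p 0.104 and 0.216).

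Of 20 genes known to be induced by TNF, 16 were tested, with 12 higher, 1 lower and a median log2 fold change of 0.80, where the shares over all genes tested were 25.0% and 23.4%. The chemokine Ccl2 went from 0.589 ± 0.364 to 4.57 ± 5.78 CPM (SD, n = 6 each), with 16.2 CPM in mdx/mTR replicate 5 and a log2 fold change of 2.94 ± 0.68 (SE, edgeR adjusted p 0.00286), which was 1.90 without that mouse. Ccl5 (2.02) and Lcn2 (1.98) rose without overlap. The mitochondrial superoxide dismutase gene Sod2 went the other way, from 398 ± 18.7 to 292 ± 26.01 CPM (SD, n = 6 each), a log2 fold change of -0.45 (edgeR adjusted p 8.02e-05). Macrophages also express several of these genes, and the summed macrophage markers given above were higher in every mdx/mTR mouse than in any WT mouse. Their part in these results was not tested.

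Of 10 further superfamily and shedding genes 8 were tested, with 4 higher and 2 lower (median 0.02). The shares over all genes tested were 25.0% and 23.4%. Eda, the ectodysplasin gene whose product is bound by Eda2r in one isoform, rose from 4.25 ± 0.599 to 5.51 ± 0.474 CPM (SD, n = 6 each), a log2 fold change of 0.38 ± 0.10 (SE, edgeR adjusted p 0.00718). The isoforms of Eda were not separated in the counts. Relt, a receptor of this family under another symbol, had a log2 fold change of -0.64 ± 0.10 (adjusted p 0.000276), and Timp3, an inhibitor of shedding proteases, one of -0.49 (adjusted p 0.00504). Rhbdf1 (0.28) and the TNF-shedding protease gene Adam17 (0.20, adjusted p 0.0461) rose, and the Adam17 call was lost in 11 of 20 alternatives. Cd40lg, the ligand of Cd40, was not tested and had 3 counts over all libraries.

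**Figure D5:**
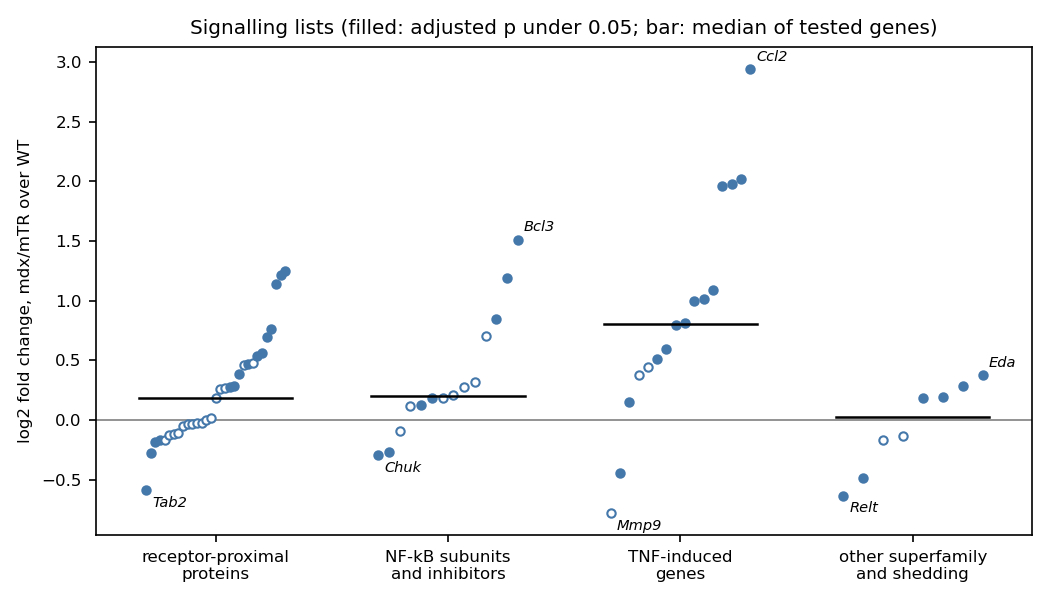
Log2 fold change, mdx/mTR against WT (vertical axis) of the 69 tested genes in the 4 pathway lists (horizontal axis), with 1 point per gene, filled where the adjusted p was under 0.05, and a bar at each median. The median of the TNF-induced genes is 0.80, and those of the other lists lie between 0.02 and 0.20.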

How the data were processed

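Members, roles, pathway lists and marker lists were chosen with earlier results of these data known. Raw counts per gene symbol were deposited by the authors for 12 mice, with 0 sample columns left unmatched. The authors' deposited table gives, per the file headers, a signal per gene (the mean of normalized values), log2 fold changes, a test score and p-values. The submitters' processing notes name FastQC, STAR, DESeq2 and mm10; annotation, strand handling and versions are not given in the sources used here.

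Counts were tested with edgeR 4.0.16 in R 4.3.3 (filterByExpr, TMM scaling, glmQLFit and glmQLFTest, group only), with Benjamini-Hochberg adjustment over all 13937 genes tested and a threshold of 0.05. The procedure was tested on simulated counts, and the outcome is not reported here. Alternatives were other filters and scalings, DESeq2 1.42.0, limma-voom (limma 3.58.1), a replicate block, each mouse left out, a stricter threshold and a minimum effect. Chi-square per degree of freedom between replicates ran from 9.1 to 128, so no library was a duplicate.

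The lowest, median and highest value of each group are given for members past the threshold with a log2 fold change of at least 1 in size. They are also given for Tnf, Tnfsf12, Tnfrsf1a, Tnfrsf1b, Tnfrsf12a, Fas, Tnfrsf11b and Eda2r. From each pathway list the 3 largest rises and falls past the threshold are named, with Traf1, Birc3, Nfkb2, Relb, Nfkbia, Eda and Cd40lg; 1 gene under this rule is not reported here. Other genes named were chosen after their values were seen. Gene positions, exon lengths and shared 50-base stretches come from GENCODE M21 (GRCm38), and promoters from RefSeq (GRCm38.p6), with 34 of 43 members matched. Marker lists not given in the report, as summed CPM (WT, then mdx/mTR), were natural killer cells (0.111 to 0.602, 0.820 to 2.45), dendritic cells (7.37 to 9.79, 9.86 to 16.6), mast cells (8.53 to 15.3, 19.7 to 26.4), plasma cells (3.78 to 6.11, 4.91 to 9.39), endothelial cells (402 to 536, 320 to 426), fibro-adipogenic progenitors (579 to 914, 1144 to 1963), adipocytes (6.97 to 10.9, 4.62 to 15.4) and tenocytes (6.24 to 13.9, 12.03 to 17.7).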

Additional observations from a re-analysis of the deposited data

Results flagged for a closer look

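In 56 groups of 6 values (28 tested members in each strain), 8 held a mouse whose gap to the nearest other, divided by the whole range of the group, exceeded 0.625. Chance gives about 1 in 20, or 2.8 of 56, and members of one mouse are not independent. All 8 were the highest mouse of the mdx/mTR group. In replicate 5 they were Tnfrsf22 at 4.88 CPM (others 2.55 to 2.83), Tnfrsf23 at 20.2 CPM (others 10.7 to 12.9), Tnfrsf11a at 5.43 CPM (others 1.64 to 2.7), Tnfrsf11b at 1.32 CPM (others 0.286 to 0.552), Tnfrsf18 at 2.98 CPM (others 1.79 to 2.16) and Ltb at 1.09 CPM (others 0.184 to 0.349). In replicate 2 it was Tnfrsf12a at 64.4 CPM (others 16.5 to 25.4). In replicate 6 it was Tnfrsf21 at 47 CPM (others 35.8 to 38.7).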

How the results depend on the processing

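Over the tested members, 522 of 552 alternative values kept their direction and their side of the threshold, 17 lost the threshold, 12 gained it and 1 reversed (Fas, 0.037 on the log2 scale with library totals alone). These alternatives, and those counted per gene above, leave out the stricter threshold and the minimum effect. A test of whether a change exceeds 0.5 on the log2 scale (glmTreat in edgeR), which asks more than an estimate above 0.5, called 4 members higher and 0 lower, against 11 and 3. Leaving out each mouse gave 10 to 12 higher and 2 to 3 lower. There was 1 member lower with library totals alone and 1 at an adjusted p of 0.01. For the pathway lists, with 32 genes higher and 9 lower, glmTreat gave 12 and 0, library totals alone 46 and 5, and leaving out each mouse 28 to 36 and 8 to 10. The cause of these changes was not tested. Same-numbered mice of the 2 groups correlated from -0.155 to 0.354, with 2 of 6 pairs over 0.1. Mice with different numbers were not compared, so these values cannot decide whether the numbers mark a pairing. The replicate block gave 14 members higher, with Tnf, Ltb and Cd40 added (edgeR adjusted p 0.00981, 0.0484 and 0.038), and 3 lower. The 15 untested members had too few counts for the filter, and 3 of them passed the threshold with no filter on low counts.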
